A study of Mus musculus with 5 samples.

Results

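Group 2 innate lymphoid cells (ILC2s) of the mouse lung fell into 6 sub-clusters in the authors' analysis, numbered from 0 to 5, and sub-cluster 2 is described here by the genes that set it apart. Its members were read from the deposited lung table. Every list that names genes higher in sub-cluster 2 was taken, against all other lung ILC2s together and against each of the other 5 sub-clusters in turn (1 versus 1), along with the 5 lists of genes higher in another sub-cluster than in 2. The list against all others held 29 genes, 112 genes were higher than in at least 1 other sub-cluster, and 54 genes were lower. These were drawn from 191 genes in any lung list and 688 genes in any list of the series, so the list against all held 15.2% of the lung genes, the 1 versus 1 lists 58.6%, and the lists of lower genes 28.3%.

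The mice were male C57BL/6 animals aged 6 weeks, with no treatment named in the labels. ILC2s had been sorted from 5 of their tissues, namely the lung, the small intestine (SI), the large intestine (LI), the pancreas and the bone marrow (BM). Lung ILC2s, like those of BM, LI and pancreas, were negative for lineage markers and positive for ST2 and CD25, whereas SI ILC2s were gated on CD45, reduced Thy1 and surface KLRG1. Cells of 10 mice were pooled per batch and each tissue gave 1 library, with lung, LI and SI prepared in 1 batch and BM and pancreas in another, so tissue and batch overlap in part and no value has a replicate. Lung tissue was digested with collagenase and DNase for 1 h, and BM was flushed without digestion.

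The deposited tables hold gene symbols alone. A gene is listed or it is not, with no level, fold change or p-value. The tables do not give the number of cells per sub-cluster or the counts per gene, so the depth behind a listing is unknown and neither the size nor the error of a difference can be given. The lists were also made from the same cells that had been clustered, so a listing describes the sub-cluster and is no test of it. In what follows, higher and lower mean that the authors listed the gene in that direction, and a missing gene was not listed, which does not show equal expression.

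As background, ILC2s are tissue-resident lymphocytes that respond to alarmins such as IL-33, release IL-5 and IL-13, and make amphiregulin, an epidermal growth factor family ligand that acts on epithelium during repair. In the lung they sit near nerves and neuroendocrine cells, and the neuropeptide CGRP, encoded by Calca, acts on ILC2s through a receptor that signals by cyclic AMP. Cyclic AMP activates factors of the CREB family, which bind the cAMP response element in promoters. Ornithine decarboxylase, encoded by Odc1, carries out the rate-limiting step of polyamine synthesis.

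The label of the sub-cluster was first checked against its markers. All 6 genes given for it (Odc1, Hilpda, Calca, Areg, Rora and Icos) were in the list against all, and 5 of the 6 were in at least 3 of the 5 1 versus 1 lists, Rora being in 2. These genes gave the sub-cluster its name, so this is a description. Of 19 genes that mark ILC2s as a class, 4 were in any lung list and all 4 were higher in sub-cluster 2 than in all others (100%, beside 15.2% of all lung-listed genes), of which Rora and Icos are also among the 6 genes that named it. The 4 were Rora, a nuclear receptor needed for ILC2 development, Icos, a costimulatory receptor, Hs3st1, a heparan sulfate sulfotransferase, and Ramp3, a receptor accessory protein. With at least 3 of the 5 1 versus 1 lists the count was 2, since Rora and Hs3st1 were each in 2 lists. Sub-cluster 3 also had Rora and Hs3st1 in 1 list each. All lung sub-clusters came from the same ILC2 sort, so the count does not rank them by ILC2 identity. The sort markers Il1rl1 (ST2) and Il2ra (CD25) and the ILC2 regulator Gata3 were in no lung list, and lists of differences among ILC2s cannot show a gene that all of them share.

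The sources used here do not say what the order of genes in a list means. In the deposited order, the genes higher than in all other lung ILC2s were Odc1, Hilpda, Calca, Ramp3, Plaur, Crem, Dusp10, Vps37b, Sub1, Isy1, Gm20186, Areg, Icos, Rel, Gem, Gpr65, Lmo4, Maff, Gpr132, Dad1, Samsn1, Skil, Ifrd1, Hs3st1, Dusp5, H3f3b, Rora, Dgat1 and Fam46a. This was the longest list against all in the lung, where the other 5 sub-clusters had 4 (sub-cluster 0), 12 (1), 2 (3), 9 (4) and 15 genes (5). Only 5 of the 36 sub-clusters in the series had a longer one. None of the 29 genes was in another lung sub-cluster's list against all, and none was lower than any other lung sub-cluster in a 1 versus 1 list. The 29 had been chosen as higher in 2, which makes both absences likely, so neither shows that the genes are exclusive to 2.

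The promoters of Odc1, Calca, Ramp3 and Areg are shown because these genes stand for the polyamine, CGRP and amphiregulin parts of the list and because Odc1, Calca and Areg are known targets of cyclic AMP signalling. Each run holds 250 bases before and 50 bases from the RefSeq start of the gene (GRCm38.p6, the assembly called mm10), read on the gene's strand, with capitals marking the TGACG core of the cAMP response element or its reverse complement CGTCA.
Odc1, chr12:17544623-17544922, plus strand: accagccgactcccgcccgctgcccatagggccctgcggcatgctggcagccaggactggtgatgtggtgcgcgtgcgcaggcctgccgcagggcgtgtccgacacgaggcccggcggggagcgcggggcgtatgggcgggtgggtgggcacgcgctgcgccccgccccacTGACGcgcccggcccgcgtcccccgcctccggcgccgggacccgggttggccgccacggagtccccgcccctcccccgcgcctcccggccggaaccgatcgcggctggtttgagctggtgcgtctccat
Calca, chr7:114636308-114636607, minus strand: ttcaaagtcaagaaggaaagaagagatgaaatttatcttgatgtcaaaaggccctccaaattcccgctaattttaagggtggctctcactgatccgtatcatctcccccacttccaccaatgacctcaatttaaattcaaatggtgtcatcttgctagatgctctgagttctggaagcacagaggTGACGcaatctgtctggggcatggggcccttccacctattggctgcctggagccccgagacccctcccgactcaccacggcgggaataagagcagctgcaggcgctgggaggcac
Ramp3, chr11:6658283-6658582, plus strand: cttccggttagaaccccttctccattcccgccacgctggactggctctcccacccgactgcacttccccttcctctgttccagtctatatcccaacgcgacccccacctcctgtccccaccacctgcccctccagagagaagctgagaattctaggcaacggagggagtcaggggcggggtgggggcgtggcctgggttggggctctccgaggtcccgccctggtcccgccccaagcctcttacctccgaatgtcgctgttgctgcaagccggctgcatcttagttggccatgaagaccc
Areg, chr5:91139349-91139648, plus strand: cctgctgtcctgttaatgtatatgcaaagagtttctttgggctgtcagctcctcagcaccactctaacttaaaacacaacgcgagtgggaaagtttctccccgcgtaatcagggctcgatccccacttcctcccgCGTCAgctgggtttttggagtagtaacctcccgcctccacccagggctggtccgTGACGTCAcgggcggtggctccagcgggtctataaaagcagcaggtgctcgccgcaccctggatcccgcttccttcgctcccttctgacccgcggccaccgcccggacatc
Odc1 held 1 core, beginning at base -79 from the start on the gene's strand, and Calca held 1 at -65. GENCODE M21 begins Odc1 further upstream than RefSeq, at 17544794, which is where this core begins. By that annotation the Odc1 core is therefore not upstream of the gene. Areg held 3, at -115, -61 and -58, the last 2 overlapping to form the full element TGACGTCA. Ramp3 held none in this window.

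Promoters were found for 22 of the 29 genes, and both strands were searched. The core TGACG, which the full element contains, was present in 13 of the 22 (59.1%): Odc1, Hilpda, Calca, Sub1, Isy1, Areg, Rel, Maff, Gpr132, Dad1, Ifrd1, Dusp5 and H3f3b. It was present in 50 of 126 promoters of the other lung-listed genes (39.7%) and in 6228 of 27025 promoters of all genes (23%). The full element TGACGTCA was in Areg and Maff, 2 of 22 (9.09%), beside 6 of 126 (4.76%) and 549 of 27025 (2.03%). The AP-1 site TGAGTCA was in Plaur alone, 1 of 22 (4.55%), beside 7 of 126 (5.56%) and 1607 of 27025 (5.95%). These shares describe letters in a window and were not tested.

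Odc1 lies on chromosome 12 at 17544794-17551505 on the plus strand (mm10, GENCODE M21). It headed the list against all and was higher in sub-cluster 2 than in each of the 5 other lung sub-clusters. It stood at position 5 over sub-cluster 0, 3 over 1, 5 over 3, 2 over 4 and 5 over 5, so it was within the first 5 names of every list. Odc1 was not exclusive to sub-cluster 2, since sub-clusters 0, 3 and 5 each had it in 1 of their own 1 versus 1 lists. Of 18 genes of polyamine metabolism, 2 were in any lung list. The other was Amd1, which makes the aminopropyl donor for spermidine synthesis, and it was lower in sub-cluster 2 than in sub-cluster 4, so the 2 listed genes of the pathway went in opposite directions.

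**Figure D1:**
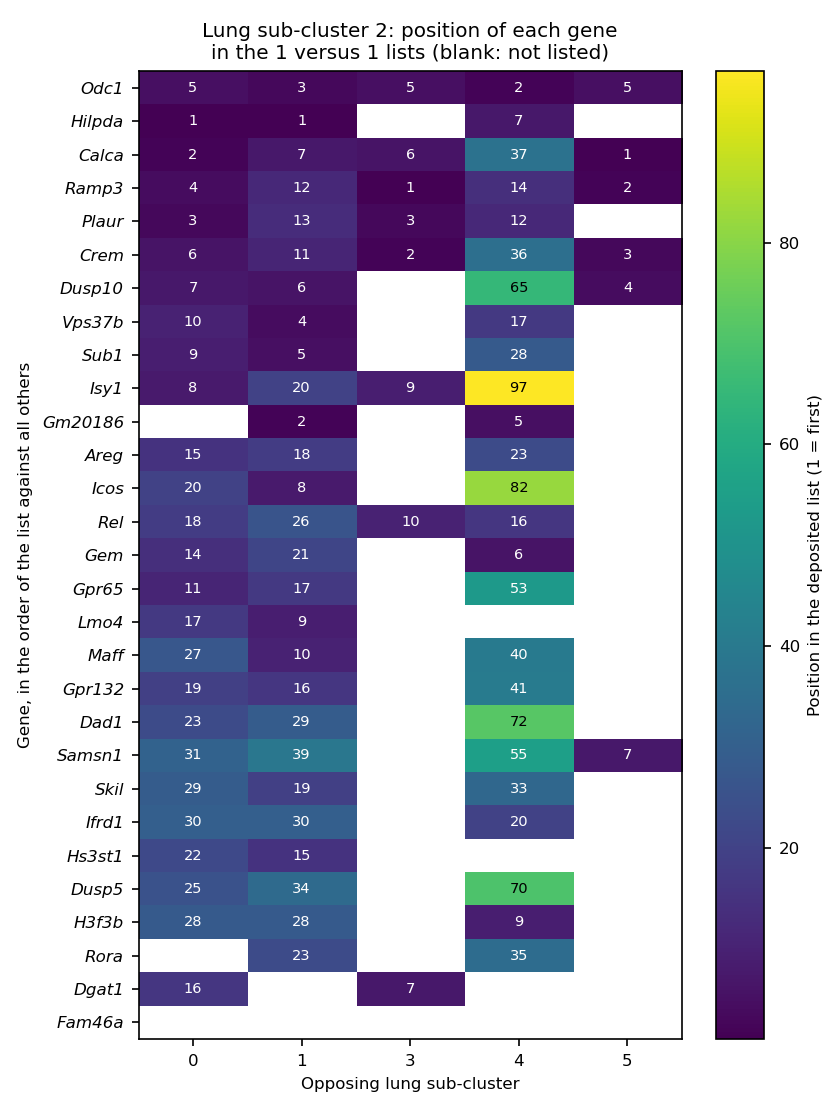
Position of each of the 29 genes (vertical axis, in the order of the list against all) in the 5 lists of genes higher in lung sub-cluster 2 than in sub-cluster 0, 1, 3, 4 or 5 (horizontal axis). The number and colour give the position in the list, where 1 is first, and a blank cell means that the gene was not listed. Odc1, Calca, Ramp3 and Crem fill all 5 columns, and the columns of sub-clusters 3 and 5 hold 8 and 6 of the 29 genes.

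Calca, the gene of calcitonin and alpha-CGRP (chromosome 7 at 114631478-114636357, minus strand), and Ramp3 (chromosome 11 at 6658521-6677475, plus strand) were both listed over all 5 sub-clusters and in no list of another lung sub-cluster. Calca stood first over sub-cluster 5 and at position 2 over 0, 7 over 1, 6 over 3 and 37 over 4. Ramp3 stood first over sub-cluster 3 and at position 4 over 0, 12 over 1, 14 over 4 and 2 over 5. A symbol does not tell calcitonin from CGRP transcripts. RAMP3 forms adrenomedullin and amylin receptors, and the accessory protein of the main CGRP receptor is RAMP1. Of 7 genes of CGRP ligands and receptors, Calca and Ramp3 were the 2 in any lung list. Ramp1 was listed in LI alone, and Calcrl, the receptor itself, was in no list of the series.

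Crem, a CREB family factor induced by cyclic AMP, was the fourth gene listed over all 5 sub-clusters and was in no list of another lung sub-cluster. It stood at position 6 over sub-cluster 0, 11 over 1, 2 over 3, 36 over 4 and 3 over 5. Of 24 genes known to be induced by CREB or cyclic AMP, 13 were in any lung list. Of these, 6 were in the list against all (46.2%, beside 15.2% of all lung-listed genes): Odc1, Calca, Crem, Areg, Gem, a small GTPase, and Vps37b, a subunit of the ESCRT-I sorting complex. Odc1, Calca and Areg are also among the 6 genes that named the sub-cluster, so this share is no independent support. All 13 were higher than in at least 1 other sub-cluster (100%, beside 58.6%). The other 7 were Nr4a1 and Nr4a2, orphan nuclear receptors, Fosl2, an AP-1 factor, Sik1, a salt-inducible kinase, Rgs1 and Rgs2, which limit G protein signalling, and Dusp1, which was also lower than in sub-cluster 0. Nr4a2, Sik1, Rgs1, Rgs2 and Dusp1 were higher than in sub-cluster 4 alone. All of these but Sik1 were higher than in 4 in every other lung sub-cluster, so they were not particular to 2.

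Areg (chromosome 5 at 91139599-91148432, plus strand) was higher than in sub-clusters 0, 1 and 4, at positions 15, 18 and 23. It was not listed over 3 or 5, and sub-cluster 5 had Areg in 1 of its own lists. Areg was the only member of 8 EGF family ligands in any list of the series. Of 20 type 2 and lymphoid cytokine genes, 4 were in lung lists. Il5 was higher than in sub-cluster 0 alone, in the last place (position 36), and Csf2, which encodes GM-CSF, was higher than in sub-cluster 4 alone. Tnfsf8, which encodes CD30 ligand, was lower than in sub-cluster 1. Il13 was in no lung list. Areg was therefore the 1 cytokine or growth factor gene of these 20 in the list against all.

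Icos (chromosome 1 at 60977927-61000320, plus strand) was the 1 of 18 costimulation and checkpoint genes in any lung list. It stood at positions 20, 8 and 82 over sub-clusters 0, 1 and 4, and no other lung sub-cluster listed it. Rora (chromosome 9 at 68653786-69388246, plus strand) was listed over sub-clusters 1 and 4, at positions 23 and 35, and sub-cluster 3 had it in 1 list. Il4ra, the IL-4 receptor alpha chain, was higher than in sub-cluster 4 alone. Among other surface proteins in the list against all, Plaur, the urokinase receptor, was higher than in 0, 1, 3 and 4, and the G protein-coupled receptors Gpr65, a proton sensor, and Gpr132 were higher than in 0, 1 and 4.

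Hilpda, a lipid droplet protein that inhibits triglyceride breakdown and is induced by hypoxia (chromosome 6 at 29272488-29275446, plus strand), stood first over sub-clusters 0 and 1 and at position 7 over 4. It also marked sub-clusters 3 and 5, each of which had it in 3 of its 5 lists, so Hilpda was shared by 3 lung sub-clusters. Dgat1, which carries out the last step of triglyceride synthesis, was higher than in 0 and 3 and in no list of another lung sub-cluster. Both genes of 16 for lipid droplets and triglycerides that were in lung lists were therefore in the list against all (100%, beside 15.2% of all lung-listed genes). Hilpda is also among the genes that named the sub-cluster. Hilpda was the 1 of 22 hypoxia-induced genes in any lung list.

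All 7 lung-listed genes of 18 in the NF-kB list were higher than in at least 1 sub-cluster (100%, beside 58.6% of all lung-listed genes). Rel, which encodes c-Rel, was higher than in 0, 1, 3 and 4 and was the 1 in the list against all (14.3%, beside 15.2% of all lung-listed genes). Nfkbia and Tnfaip3, inhibitors of the pathway, and Nfkbid were higher than in 4, Nfkbiz than in 1 and 4, Traf1 than in 3 and 4, and Nfkb1 than in 1. Nfkbia and Nfkbid were also listed by sub-clusters 0, 1, 3 and 5, and Nfkbiz and Tnfaip3 by 0, 3 and 5, whereas Rel, Traf1 and Nfkb1 were listed by no other lung sub-cluster. Of the 7 lung-listed feedback genes, 2 were in the list against all (28.6%, beside 15.2% of all lung-listed genes). These were Dusp10, a phosphatase of JNK and p38, and Dusp5, a nuclear phosphatase of ERK. All 7 were higher than in at least 1 sub-cluster (100%, beside 58.6%), but Rgs1, Rgs2, Dusp1 and Socs2 were higher than in sub-cluster 4 alone. Of the 7, 2 were also lower than in another, Dusp1 than in 0 and Spry2 than in 5. That share was near the background (28.6%, beside 28.3%). Dusp10 was higher than in 0, 1, 4 and 5, and Dusp5 than in 0, 1 and 4.

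Of the remaining genes of the list against all, Sub1 is a transcriptional coactivator, Lmo4 a LIM-only adaptor, Maff a small Maf factor, Skil a repressor of TGF-beta signalling, Ifrd1 a transcriptional coregulator and H3f3b a gene of histone H3.3. Isy1, a splicing factor, was higher than in 0, 1, 3 and 4, and Samsn1, an adaptor of lymphocyte signalling, than in 0, 1, 4 and 5. Dad1 is a subunit of the oligosaccharyltransferase, and Gm20186 is annotated as a long non-coding RNA. Gm20186 was the least particular of them, with 2 of 5 lists in each of sub-clusters 0, 2, 3 and 5. Fam46a was in no 1 versus 1 list under that symbol. Tent5a, its current name, was listed over sub-clusters 0 and 1.

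Of the 29 genes, 16 were in a 1 versus 1 list of another lung sub-cluster and 13 were in none. The 13 were Calca, Ramp3, Plaur, Crem, Isy1, Icos, Rel, Gpr65, Dad1, Samsn1, Dusp5, Dgat1 and Fam46a. The 16 were listed by sub-clusters 0, 3 or 5 and by neither 1 nor 4. Skil was in 3 of 5 lists of sub-cluster 5, as many as in sub-cluster 2. Maff and Vps37b were each in 2 lists of 3 and 2 lists of 5. Gem was in 1 list of 0, 2 lists of 3 and 1 list of 5.

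**Figure D2:**
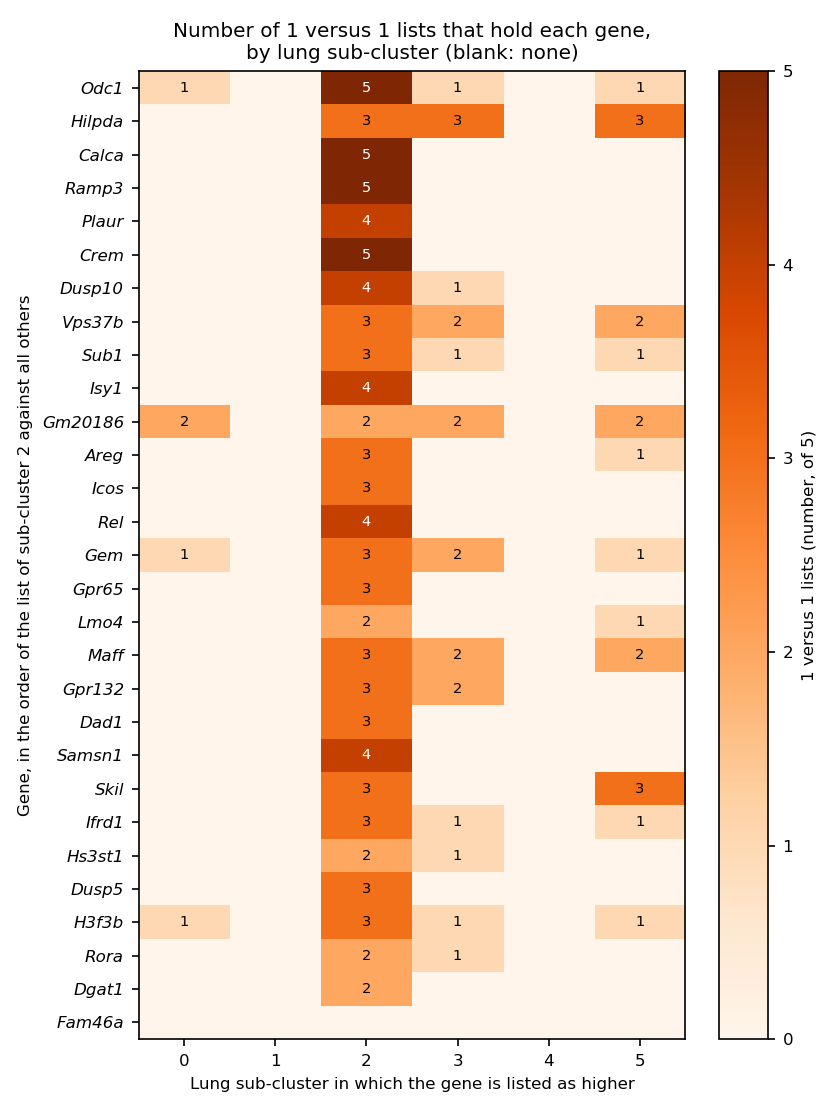
Number of the 5 1 versus 1 lists (colour and digit) of each lung sub-cluster (horizontal axis) that hold each of the 29 genes (vertical axis). The columns of sub-clusters 1 and 4 are empty, Calca, Ramp3 and Crem are at 5 in sub-cluster 2 and blank elsewhere, and Hilpda is at 3 in each of sub-clusters 2, 3 and 5.

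Sub-cluster 2 was set apart to different degrees from the other 5. The lists of genes higher in 2 held 97 genes over sub-cluster 4, 53 over 1, 36 over 0, 10 over 3 and 7 over 5. The opposite lists held 15, 21, 10, 2 and 20 genes. Counting both directions, 112 genes separated 2 from 4, the largest number among the 15 lung pairs, and 12 separated 2 from 3, the second smallest after the 8 between 0 and 3. Sub-cluster 5 was the only one over which fewer genes were higher in 2 (7) than lower (20). The tables give no cell numbers, on which list lengths depend.

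**Figure D3:**
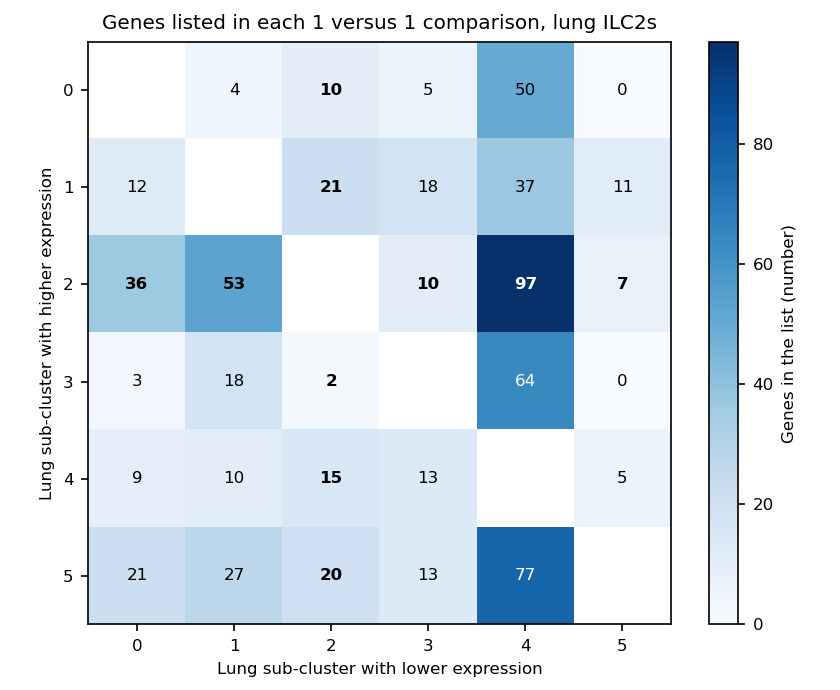
Number of genes in each 1 versus 1 list of the lung, with the sub-cluster of higher expression on the vertical axis and that of lower expression on the horizontal axis. Bold numbers involve sub-cluster 2, whose longest list (97 genes) is over sub-cluster 4 and whose shortest (7 genes) is over sub-cluster 5.

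The 7 genes higher in 2 than in 5 were Calca, Ramp3, Crem, Dusp10, Odc1, Samsn1 and the cytoplasmic actin gene Actg1, and all but Actg1 were in the list against all (85.7%). The 10 higher in 2 than in 3 were Ramp3, Crem, Plaur, Traf1, Odc1, Calca, Dgat1, Csrp1, Isy1 and Rel, of which 8 were in the list against all (80%). No other lung sub-cluster had any of these genes over the same sub-cluster. Against sub-clusters 0 and 1, the list against all supplied 26 of 36 genes (72.2%) and 27 of 53 (50.9%). The genes higher than in sub-cluster 0 were nearly all listed for 2 alone (32 of 36), and those higher than in sub-cluster 1 less so (33 of 53).

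Sub-cluster 4 differed in kind. The list over it held 25 genes of the list against all (25.8% of 97), and 67 of the 97 were also higher in another sub-cluster than in 4. Of these, 20 were higher than in 4 in all the other 5 sub-clusters: Nfkbia, Hes1, Pim1, Cdkn1a, Rgs2, Bhlhe40, Zfp36, Rgs1, Nfkbid, Ier5, Pnrc1, Tob2, Junb, Rcc2, Nr4a2, Furin, Ier2, Dusp1, Smad7 and Arhgap31. Several of these are immediate early genes, which are transcribed within minutes of a stimulus. All 20 were lower in sub-cluster 4 than in every other sub-cluster and so were not particular to 2. Another 30 genes were higher than in 4 in sub-cluster 2 alone.

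By the number of 1 versus 1 lists, 62 of the 112 genes were in 1 list, 22 in 2, 19 in 3, 5 in 4 and 4 in all 5. The list against all took all 9 genes with 4 or 5 lists, 14 of the 19 with 3 and 5 of the 22 with 2. The 5 genes with 3 lists that it left out were Spry2, Mxd1, Cwc25, Nr4a1 and Csrp1. Spry2, a feedback inhibitor of growth factor signalling, was higher than in 0, 1 and 4 and lower than in 5. Mxd1, an antagonist of MYC, Cwc25, a splicing factor, and Nr4a1 were higher than in 0, 1 and 4, and Csrp1, a LIM domain protein, than in 1, 3 and 4.

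The 54 genes lower in sub-cluster 2 were mostly particular to 1 comparison. In all, 47 were lower than in 1 sub-cluster, S100a6 and Hes1 than in 2, and Fos, Klf6 and Cd69 than in 3. Jun, an AP-1 factor, was lower than in 0, 1, 3 and 5, and Gm26802, a long non-coding RNA, than in 0, 1, 4 and 5. No gene was lower than in all 5. The genes that marked the other sub-clusters were mostly among them: 4 of 4 genes of sub-cluster 0's list against all, 12 of 12 of 1's, 1 of 2 of 3's, 8 of 9 of 4's and 13 of 15 of 5's were also higher than in 2. These were 4 of the 10 genes over 2 for sub-cluster 0, 12 of 21 for 1, 1 of 2 for 3, 8 of 15 for 4 and 13 of 20 for 5. Each list against all was drawn in part against the cells of sub-cluster 2, so the overlaps are a description.

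Over 2, sub-cluster 0 had 10 genes, among them the immediate early genes Jun, Fos, Fosb, Klf6, Klf2, Zfp36, Dusp1 and Cd69. Sub-cluster 1 had 21, with 9 genes of the cytoskeleton and calcium-binding group: Lgals1, S100a4, S100a6, S100a10, S100a11, Crip1, Vim, Capg and Ahnak. All 9 lung-listed genes of that list were lower in 2 (100%, beside 28.3% of all lung-listed genes), and none was higher. All 9 were also in sub-cluster 1's own list against all, and S100a6 alone was lower than in a further sub-cluster, 4. Sub-cluster 3 had Hes1 and Jun. Sub-cluster 4 had 15, among them Milr1, an inhibitory receptor, Zfas1, a non-coding RNA, Txnip, an inhibitor of thioredoxin, Cd27 and the survival factor Bcl2. Sub-cluster 5 had 20, among them Notch2 and its target Hes1, the histone-modifying enzymes Kdm6b and Kmt2d, and the cell surface proteoglycan Sdc4.

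**Figure D4:**
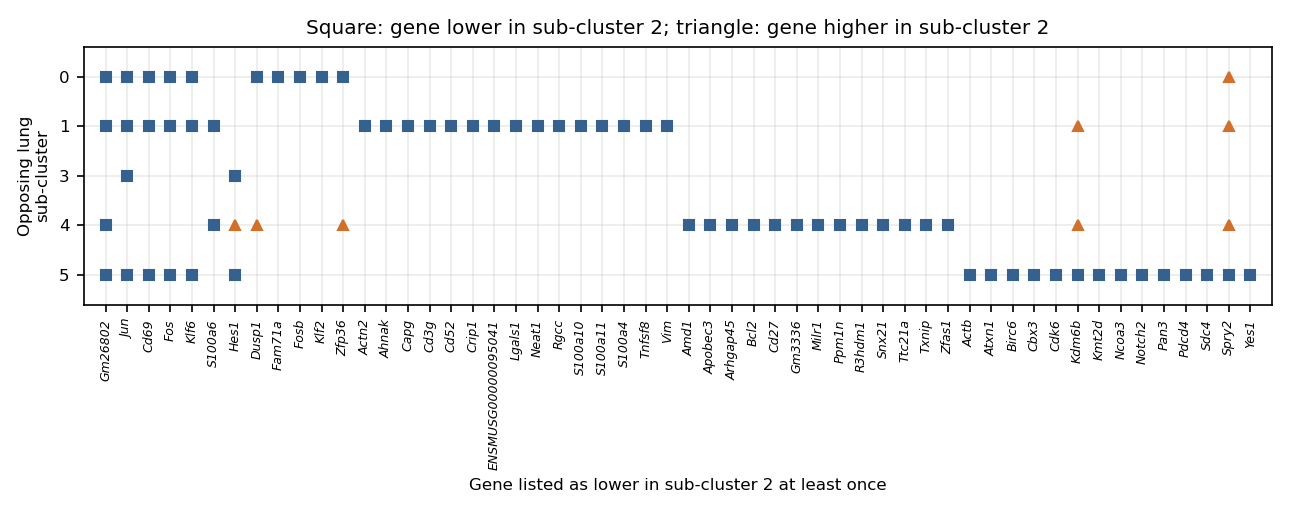
The 54 genes lower in lung sub-cluster 2 (horizontal axis) by the sub-cluster over which they were listed (vertical axis). Squares mark lists in which the gene was lower in sub-cluster 2, and triangles lists in which it was higher. Jun and Gm26802 have 4 squares each, and Spry2, Kdm6b, Hes1, Zfp36 and Dusp1 have both symbols.

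Immediate early genes were thus listed in both directions for sub-cluster 2. Of 26 such genes, 18 were in lung lists, 10 were higher than in at least 1 sub-cluster (55.6%, beside 58.6% of all lung-listed genes) and 8 were lower than in at least 1 (44.4%, beside 28.3%), with Zfp36 and Dusp1 in both counts. Maff was the 1 in the list against all (5.56%). Fos, Fosb, Jun, Klf2, Klf6 and Cd69 were lower only, and Junb, Atf3, Ier2, Ier5, Klf4, Nr4a1 and Nr4a2 were higher only. Among the latter, Junb, Atf3, Ier2, Ier5 and Nr4a2 were higher than in sub-cluster 4 alone. All of these but Atf3 were higher than in 4 in every other lung sub-cluster, so they were not particular to 2. Of 10 lung-listed AP-1 and related bZIP factors, Crem, Maff, Fosl2, Junb, Atf3 and Cebpb were higher (60%) and Fos, Fosb and Jun were lower (30%). These shares were near the 58.6% and 28.3% of all lung-listed genes.

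In all, 5 genes were higher than in some sub-clusters and lower than in others. Spry2 and Kdm6b were higher than in 1 and 4 and lower than in 5, Spry2 also being higher than in 0. Hes1 was higher than in 4 and lower than in 3 and 5, and Zfp36 and Dusp1 were higher than in 4 and lower than in 0. The other 107 genes of the 112 were higher only.

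Markers of other cells that a lung sort could hold were nearly absent. None of 14 lung epithelial, 10 B and plasma cell, 10 endothelial and 8 stromal markers was in any list of the series, and none of the markers of ILC3s (8), NK cells and ILC1s (12), myeloid cells (14) and erythroid cells (6) was in a lung list. Of 14 genes of pulmonary neuroendocrine cells, which also make CGRP, Calca was the only one listed in any tissue. The T cell gene Cd3g and the mast cell gene Milr1 were both on the lower side, Cd3g beside sub-cluster 1 and Milr1 beside sub-cluster 4. The authors had removed clusters with markers of several of these cells. Of the heat shock (19), interferon (25) and cell cycle (19) lists, only 1, 2 and 1 genes were in any lung list. None was in the list against all, beside 15.2% of all lung-listed genes. With so few listed, that absence is not a result about these genes. In 1 versus 1 lists, 1 of each was higher, namely Dnaja1, Irf1 and Cdkn1a (100%, 50% and 100%, beside 58.6%).

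The 29 genes were then looked up in the other 4 tissues. Of them, 15 were in a list against all of another tissue and 14 in none, with 11 in LI, 9 in SI, 2 in pancreas and 0 in BM. Of the 688 genes of the series, these tissues' lists against all held 23.8%, 16.6%, 8.87% and 10.6%. In 1 versus 1 lists, 28 were found in LI, 27 in SI, 18 in pancreas and 6 in BM, the last being Gm20186, Icos, Maff, Skil, Ifrd1 and H3f3b. The 1 versus 1 lists of LI held 67.6% of the 688 genes, those of SI 49.1%, of pancreas 19.6% and of BM 21.2%. No gene was in the lung alone. Pancreas and BM thus held like shares of all listed genes, and 18 and 6 of the 29. BM and pancreas were prepared in the same batch, but pancreas was digested and BM was flushed, so tissue and digestion cannot be told apart between them. BM differed from LI and SI in tissue, digestion and batch, which cannot be told apart either.

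Calca was the 1 gene listed against all in 3 other tissues, in LI sub-cluster 1, SI sub-cluster 2, where it came first, and pancreas sub-cluster 0. Their 1 versus 1 lists held it in 3 of 7, 4 of 6 and 4 of 6 cases. Odc1, Ramp3 and Areg were listed against all in lung sub-cluster 2 alone. In 1 versus 1 lists they were still found elsewhere. Odc1 was in 10 lists in LI, 9 in SI and 2 in pancreas, and its share was highest in SI 0 and SI 3, with 3 of 6 lists each. Ramp3 was in 15 lists in LI, 13 in SI and 2 in pancreas, with 4 of 7 in LI 1. Areg was in 8 lists in LI, 5 in SI and 2 in pancreas, with 4 of 7 in LI 2. None of these 4 genes was in a BM list.

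The sub-clusters of other tissues that shared most genes with lung 2 against all others were LI 0 and SI 0. LI 0 shared 7 genes, namely Hilpda, Plaur, Vps37b, Gem, Maff, Gpr132 and Ifrd1, which were 24.1% of the lung list and 17.9% of LI 0's 39 genes. LI 0 held 5.67% of the 688 genes of the series. SI 0 shared 5, namely Hilpda, Gm20186, Gem, Maff and Ifrd1, which were 17.2% of the lung list and 18.5% of 27 genes, with 3.92% of the series in its list. The 4 genes Hilpda, Gem, Maff and Ifrd1 were in all 3 lists, and neither LI 0 nor SI 0 listed Calca, Odc1, Ramp3, Crem or Areg against all.

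The CGRP gene and its companions were shared with other sub-clusters. LI 1 shared 4 genes, namely Calca, Icos, Dgat1 and Fam46a, which were 13.8% of the lung list and 28.6% of its 14 genes (2.03% of the series). SI 2 shared Calca, Crem and Sub1, 10.3% of the lung list and 33.3% of its 9 genes (1.31% of the series). Pancreas 0 had 2 genes in its list, Calca and Hs3st1, and both were in the lung list (6.9% and 100%, with 0.291% of the series). SI 3 shared Dgat1 alone. The other 24 of 30 sub-clusters shared none. Among them BM 0, LI 4, pancreas 2 and pancreas 3 had empty lists against all and so could share none. LI 4 still had 27 of the 29 genes in at least 1 of its 1 versus 1 lists, beside 28 in LI 0, and pancreas 3 had 15. The genes shared against all were spread over several sub-clusters of the intestine and pancreas 0. The lists against all of LI 0 and LI 1 had 0 genes in common.

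**Figure D5:**
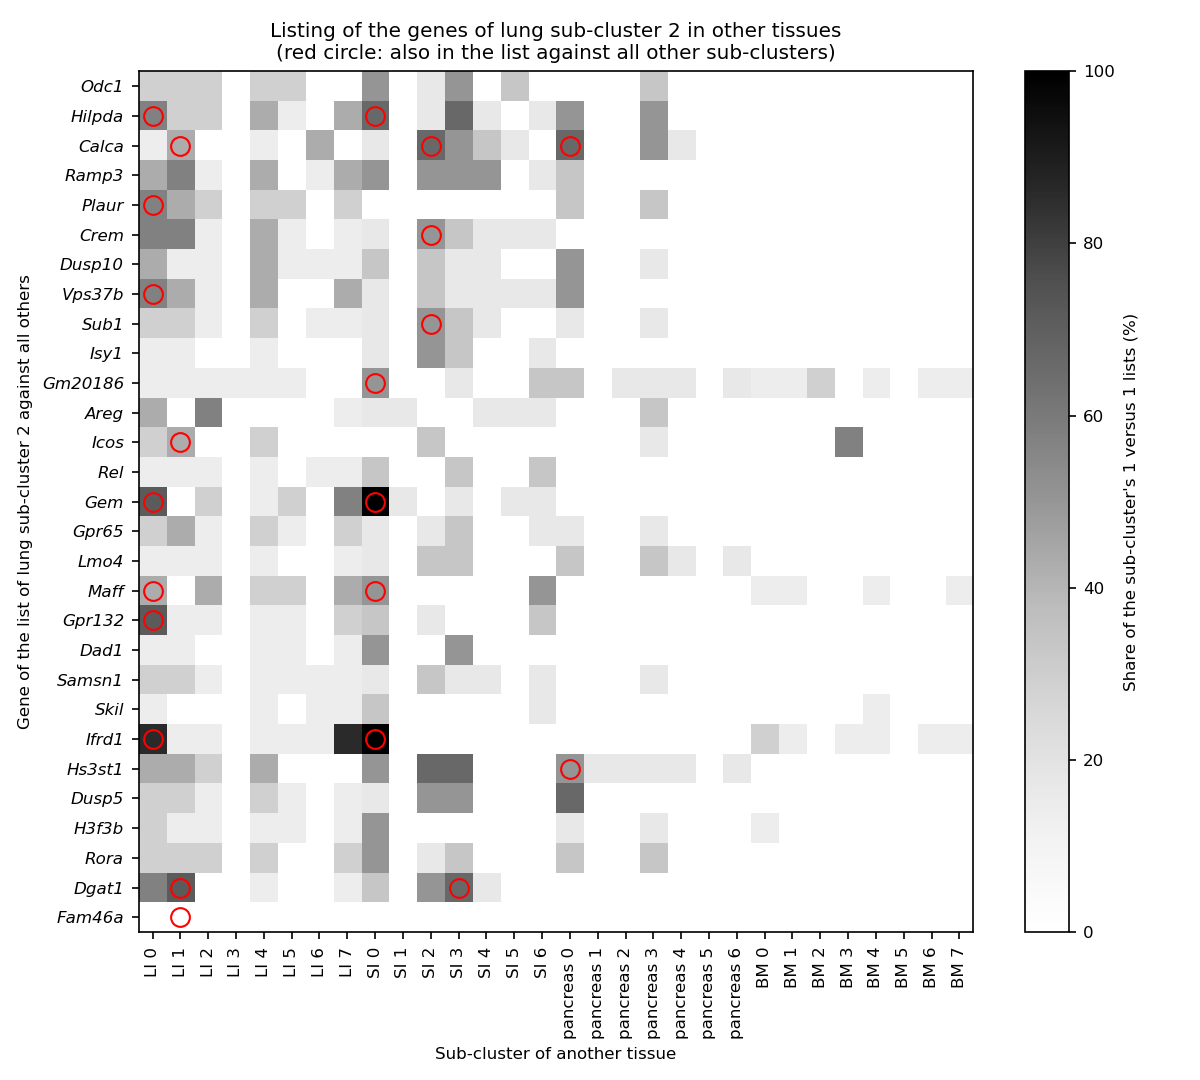
Share of the 1 versus 1 lists (grey scale, in percent) of each of the 30 sub-clusters of LI, SI, pancreas and BM (horizontal axis) that hold each of the 29 genes (vertical axis). Red circles mark genes that are also in that sub-cluster's list against all. Circles for Hilpda, Gem, Maff and Ifrd1 fall in LI 0 and SI 0, those for Calca in LI 1, SI 2 and pancreas 0, and no BM column has a circle.

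Taking instead the genes in at least 50% of a sub-cluster's 1 versus 1 lists, 28 genes in lung 2, the shared genes differed in part. SI 0 then shared 11 (Cwc25, Dad1, Gem, H3f3b, Hilpda, Ifrd1, Maff, Mxd1, Nr4a1, Odc1 and Ramp3), 39.3% of the lung genes and 25% of its own 44. LI 0 shared 10, 35.7% and 26.3%, and LI 1 shared Crem and Ramp3, so Crem was shared with both. SI 2 shared Calca, Crem, Dusp5, Isy1, Ramp3 and Sub1, and SI 3 shared Calca, Dad1, Dusp5, Hilpda, Odc1 and Ramp3. Pancreas 0 shared Calca, Dusp10, Dusp5, Hilpda and Vps37b, 5 of its 6 genes (83.3%). Pancreas 3, whose list against all was empty, shared Calca and Hilpda, which were both of its 2 genes. By this definition SI 0, LI 0, SI 2, SI 3, pancreas 0 and LI 1 held 44, 38, 20, 29, 6 and 13 of the 688 genes of the series. Calca with Ramp3 thus recurred in SI 2 and SI 3 by this definition, and in no list against all outside the lung.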

How the data were processed

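Lung ILC2s and those of 4 other tissues were profiled by droplet single-cell RNA sequencing. Per the methods of the study, the authors aligned and counted reads with Cell Ranger on mm10. They removed cells with few molecules or a high mitochondrial share, and genes detected in few cells. They log-normalised and clustered cells with Seurat (versions 2 and 3 per the methods, version 2 per the submitters' processing notes) in R 3.6.1, removed clusters of other cell types and called markers of each sub-cluster. The sources used here give neither the threshold of these calls nor what the order of genes within a list means, and they name no step for doublets.

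The deposited tables hold gene symbols from the authors' own comparisons and no counts, so depth and precision are unknown. All 262 lists were read, of which 11 involve lung sub-cluster 2 (1 against all, 5 over and 5 under another sub-cluster). Each gene was graded by the number of 1 versus 1 lists that held it. No statistical test was run, because each tissue had 1 library and a gene list has no replicate. Genes were named by rule: all genes of the list against all, those in at least 4 of the 5 1 versus 1 lists, those lower than in at least 3 sub-clusters, those shared with the 3 sub-clusters of other tissues that shared most, and prepared list members where a count was 5 or fewer. Other genes were named after their listings had been seen. The count over the prepared list of cytokine and alarmin receptors is not reported here. Because the sub-cluster, its markers, the gene lists and the alternatives were chosen with earlier results of these data known, no count here is independent support for them. Lists were compared across tissues as a share of each list and of the 688 genes listed anywhere.

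Coordinates are 1-based from GENCODE M21, and promoters are from a RefSeq table of GRCm38.p6. A RefSeq table gave a current name for 10 listed symbols. Counting genes over lists was tried with separate code on made-up lists with known overlaps. The reading of the deposited lists was not tested in this way. Python 3.11.15 and matplotlib 3.10.9 were used. The alternatives were other definitions of a listed gene (at least 1, at least 3 or every 1 versus 1 list, or 50% of them) and current symbols.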

Additional observations from a re-analysis of the deposited data

How the results depend on the processing

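The definition of a listed gene set most counts. Genes higher in sub-cluster 2 numbered 29 against all others, 112 with at least 1 of the 1 versus 1 lists, 28 with at least 3 and 4 with every one. Lower genes numbered 54 with at least 1 list, 7 with at least 2 and 0 with every one. With at least 1 list in both tissues, genes shared with lung 2 rose from 7 to 83 for LI 0, from 5 to 68 for SI 0, from 4 to 41 for LI 1, from 3 to 38 for SI 2 and from 2 to 21 for pancreas 0. With at least 50% of the lists they were 10, 11, 2, 6 and 5, and SI 0 then shared most. Taken whole, the 1 versus 1 lists of LI, SI and pancreas held 67.6%, 49.1% and 19.6% of the 688 listed genes. The larger counts with at least 1 list therefore need not mean closeness to lung 2. Sub-clusters of other tissues that shared at least 1 gene numbered 6 against all, 13 with 50% of the lists and 29 with at least 1. Prepared gene lists with a member in sub-cluster 2 numbered 15, or 21 with at least 1 list and 15 with at least 3. Of 21 lists with their own count, 12 moved with at least 1 list and 3 with at least 3. Current symbols, tried for the genes shared against all others and for the number of sharing sub-clusters, changed none of these counts. No library could be left out, since each tissue had 1, and depth could not limit any statement by a known amount because the tables give none.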
